A study of Mus musculus with 18 samples.

Results

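The glucocorticoid receptor, the enzymes that make or remove its ligand and a set of its known target genes were followed in fetal mouse lung. The 8 genes were chosen by name, and all 20 of their probe sets on the array were kept out of 45037 tested, which carry 18193 gene symbols. Nr3c1 has 6 probe sets, Tsc22d3 has 4, Fkbp5 and Zbtb16 have 3 each, and Hsd11b1, Hsd11b2, Per1 and Sgk1 have 1 each. Where a gene has several, its values below come from the set of highest mean signal unless another is named.

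Lungs of BALB/c fetuses were harvested at gestational day (GD) 18 or 17, and 18 Affymetrix MOE430 2.0 arrays were hybridised, 3 for each of 6 groups. Each array carried RNA pooled from 3 fetuses of 1 sex, each taken from a separate litter. The flutamide-treated males (18 flut and 17 flut) came from dams that received 1 mg of the antiandrogen subcutaneously each day, starting at GD10 and ending the day before harvest. The males (18 m and 17 m) and females (18 f and 17 f) came from dams that received the vehicle, and no flutamide-treated females were studied. Flutamide blocks the androgen receptor, and it was given to the dam and not to the fetus directly. The comparisons ask how the genes differ between the days, with antiandrogen treatment of males and between the sexes.

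Glucocorticoids cross the cell membrane and bind the glucocorticoid receptor, which is held ready in the cytoplasm by heat shock protein chaperones and then enters the nucleus to switch genes on or off. Inside the cell Hsd11b1 turns inactive 11-keto steroid into active corticosterone, while Hsd11b2 does the opposite. In fetal lung, glucocorticoids are known for driving the thinning of the mesenchyme and the onset of surfactant production before birth, and mice without the receptor die at birth with immature lungs.

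The promoters of 5 of the 8 genes, 13 in all because Sgk1, Tsc22d3 and Per1 have several start sites, were read from RefSeq (GRCm38.p6). Those of Nr3c1, Hsd11b2 and Zbtb16 were not among the promoters read and were not searched. In the 250 bases before each start, both strands were searched for the full palindrome of the glucocorticoid response element (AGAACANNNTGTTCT), for its half-site (AGAACA), which lies inside the palindrome, and for the E-box (CACGTG) through which the circadian clock drives Per1. The palindrome was in 3 of 32544 promoters (0.00922%), the half-site in 5216 and the E-box in 1964 (6.03%). The 3 promoters of members that hold the palindrome or an E-box are printed 5′ to 3′ on the strand of the gene, with these letters in capitals.
Sgk1, chr10:21993640-21993889, plus strand: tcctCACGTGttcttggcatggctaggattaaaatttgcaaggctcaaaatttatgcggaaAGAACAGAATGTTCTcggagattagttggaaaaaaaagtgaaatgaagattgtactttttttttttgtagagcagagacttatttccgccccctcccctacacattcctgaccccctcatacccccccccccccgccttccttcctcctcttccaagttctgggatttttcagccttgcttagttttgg
Per1, chr11:69098699-69098948, plus strand: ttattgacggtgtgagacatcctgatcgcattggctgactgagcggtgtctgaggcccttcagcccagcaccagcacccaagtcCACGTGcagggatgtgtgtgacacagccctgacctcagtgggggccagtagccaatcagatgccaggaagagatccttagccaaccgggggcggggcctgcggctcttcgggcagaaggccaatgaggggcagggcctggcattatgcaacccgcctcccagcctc
Fkbp5, chr17:28486150-28486399, minus strand: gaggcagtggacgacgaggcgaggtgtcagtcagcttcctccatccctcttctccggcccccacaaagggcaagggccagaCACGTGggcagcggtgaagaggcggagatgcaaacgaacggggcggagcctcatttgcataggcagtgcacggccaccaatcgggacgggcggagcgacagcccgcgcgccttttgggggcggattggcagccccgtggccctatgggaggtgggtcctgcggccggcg
The Sgk1 promoter holds the palindrome, starting 189 bases before the transcription start, and an E-box starting 246 bases before it. The E-box of Per1 starts 166 bases before its start and that of Fkbp5 169 bases before. One of 3 Tsc22d3 promoters and 2 other Sgk1 promoters hold only the half-site, and none of these motifs was found in the window of Hsd11b1. A match is a description of the letters and not a measured site of binding.

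Values are log2 of the deposited intensity, differences are log2 differences with their standard error from limma, and called means a Benjamini-Hochberg adjusted p under 0.05 over all 45037 probe sets. The number of arrays, 3 per group, limits the precision of every value. Markers of lung were present in every pool, with a mean over 14 epithelial markers between 10.6 and 10.9 on the log2 scale at GD18 and between 8.92 and 9.73 at GD17. Some pools stood apart from the others of their group. Pool 3 of 18 flut, labelled male, went against its label for Xist, the RNA of the inactive X chromosome. Its Xist signal was 11.95, against 8.15 and 8.08 in the other 18 flut pools and 12.33 to 12.51 in 18 f. Its signals of Uty, Kdm5d and Eif2s3y, which lie on the Y chromosome, were 7.11, 7.11 and 7.21, below those of the other 18 flut pools (8.04 to 8.53) and above those of 18 f (3.31 to 3.84). Pools 2 and 3 of 17 f and pool 3 of 17 m had a mean of 9.0 to 9.59 over 15 pancreas genes, while the other 15 pools lay between 5.64 and 6.14. Pool 3 of 18 m was high in liver genes (mean 11.3) and had a lower 5′ than 3′ signal of Actb (difference -0.80, against -0.49 to -0.34 in the other pools). Pool 2 of 18 flut was the highest of all pools in adrenal cortex genes (6.59) and in skeletal muscle genes (11.03). Its mean over liver genes was 10.16, and that of 17 f 2, 17 f 3 and 17 m 3 was 9.58 to 9.68. Apart from 18 m 3, the remaining pools lay between 6.48 and 8.55. Heart genes were highest in 18 m 3 (11.29) and 18 flut 3 (10.93), against 8.71 to 10.24 in the other pools. Stomach and squamous genes were highest in 17 f 2, 17 f 3 and 17 m 3 (7.05 to 7.98), against 6.10 to 6.76.

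At GD18 the receptor gene Nr3c1, the activating enzyme Hsd11b1 and the target genes were higher than at GD17. The inactivating enzyme Hsd11b2 was lower. The difference of Fkbp5 in flutamide-treated males (0.21) had the same sign but was not called. Hsd11b1 and Zbtb16 had the widest differences, between 2.28-fold and 4.39-fold higher at GD18. In their probe sets of highest mean, 7 genes were called higher and Hsd11b2 lower at GD18 in males and in females. In flutamide-treated males 6 were called higher and Hsd11b2 lower, while Fkbp5 did not pass. Among all genes, 13% were higher and 13.8% lower in flutamide-treated males, 17.7% and 12.4% in males, and 17.2% and 22.5% in females. Of the 20 probe sets, 12 were called in flutamide-treated males, 13 in males and 14 in females, against 20.3%, 25% and 33.6% of all probe sets. Without 17 f 2, 17 f 3 and 17 m 3, which leaves 1 pool in 17 f that is assumed to vary like the other groups, 9 of 20 were called in females. Without 18 flut 3, 10 of 20 were called in flutamide-treated males. The median difference over the 8 genes was 0.49 in flutamide-treated males, 0.63 in males and 0.70 in females, while that of all probe sets was -0.01, 0.01 and 0.02. For 7 of the 8 genes all 9 pools of GD18 lay above all 9 pools of GD17, a separation that 19.5% of all genes had in either direction. Within a group the days did not overlap for 39.4% of all probe sets in flutamide-treated males, 33.2% in males and 48.4% in females.

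**Figure D1:**
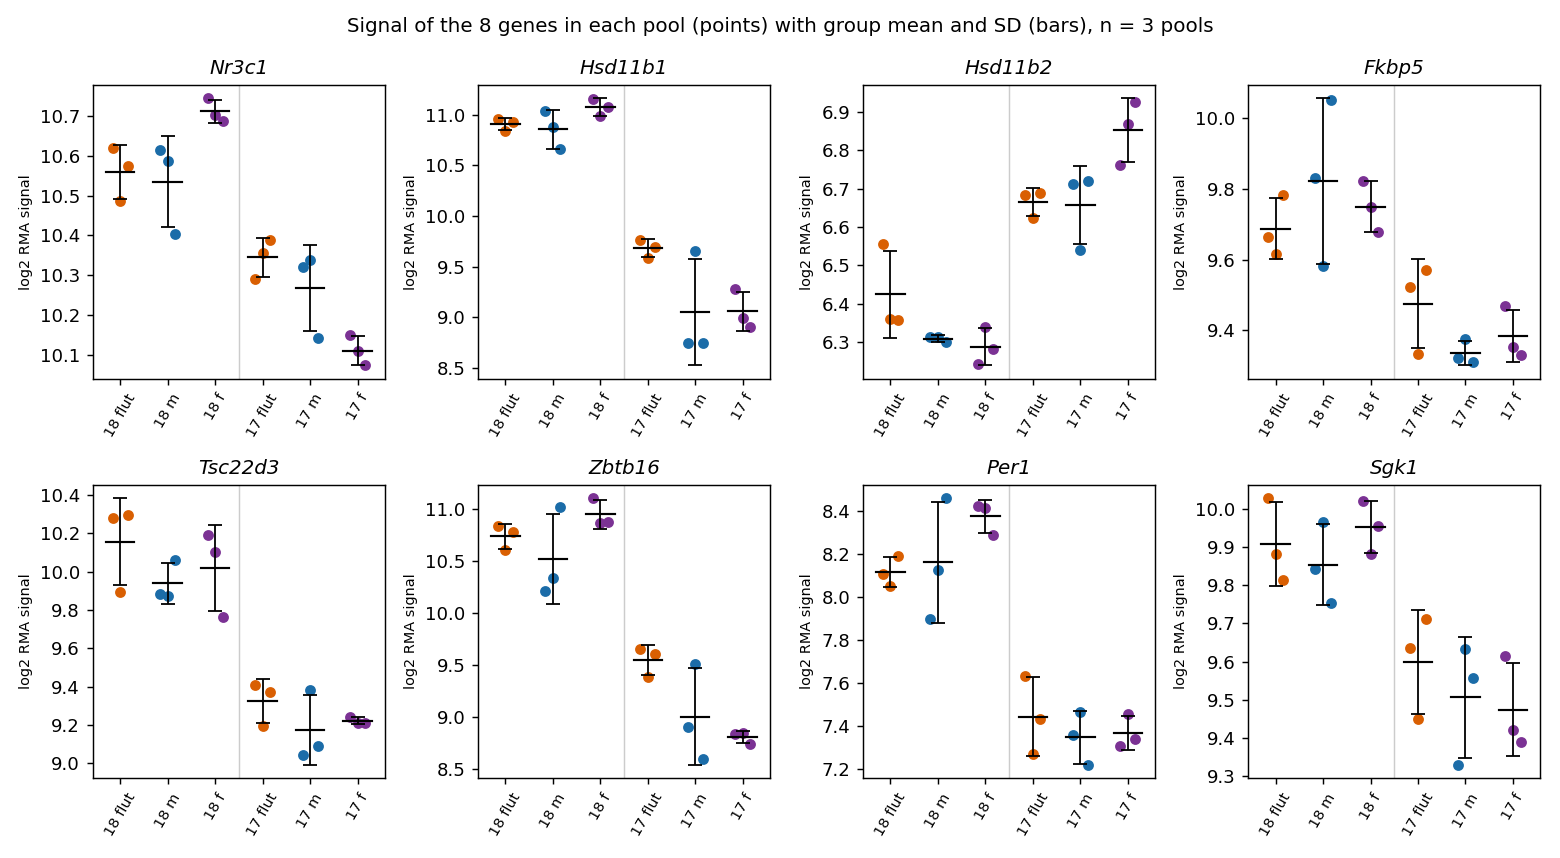
Log2 signal of the 8 genes in every pool, 1 panel per gene, with the 6 groups on the horizontal axis in the order 18 flut, 18 m, 18 f, 17 flut, 17 m, 17 f. Each point is 1 pool of 3 fetuses and each bar the mean of 3 pools. For every gene other than Hsd11b2, the 9 pools of GD18 lie above the 9 pools of GD17.

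The receptor gene Nr3c1 was modestly higher at GD18. Its signal was 10.62, 10.49 and 10.57 in 18 flut, against 10.29, 10.36 and 10.39 in 17 flut. It was 10.61, 10.59 and 10.40 in 18 m, against 10.32, 10.34 and 10.14 in 17 m. The females had 10.74, 10.70 and 10.69 in 18 f, against 10.15, 10.11 and 10.08 in 17 f. No pool of one day overlapped with the other day within a group, and the females held the 3 highest pools of GD18 and 2 of the 3 lowest of GD17. The difference between the days was 0.21 ± 0.07 in flutamide-treated males (1.16-fold, adjusted p = 0.0399, limma), 0.27 ± 0.07 in males (1.2-fold, adjusted p = 0.0102) and 0.60 ± 0.07 in females (1.51-fold, adjusted p = 5.44e-06). In flutamide-treated males the call was lost when any 1 pool other than 18 flut 2 was left out (adjusted p between 0.0592 and 0.145), and in males when 17 m 3 was left out (adjusted p = 0.0545) or 17 f 2, 17 f 3 and 17 m 3 together (adjusted p = 0.079). In bulk lung, a different share of receptor-bearing cells and a different amount of RNA per cell cannot be told apart.

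The other 5 probe sets of Nr3c1 did not all behave alike. The set of next highest mean, 1460303_at, was higher at GD18 by 0.22 ± 0.06 in flutamide-treated males, by 0.42 ± 0.06 in males and by 0.57 ± 0.06 in females, and all 3 differences were called. Another set, 1457635_s_at, was higher by 0.39 ± 0.11 in males and 0.54 ± 0.11 in females, and its difference of 0.21 ± 0.11 in flutamide-treated males did not pass. The remaining 3 sets, 1421866_at, 1453860_s_at and 1431378_at, were called in none of the groups. In 1421866_at pool 3 of 18 m, the pool with the low 5′ signal of Actb, had 6.57, against 8.94 and 8.64 in the other 18 m pools. Its part in that probe set's male difference of -0.42 ± 0.39 was not tested.

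Hsd11b1, which regenerates active corticosterone inside cells, showed 1 of the widest differences of the group. Its signal was 10.96, 10.84 and 10.92 in 18 flut, against 9.77, 9.59 and 9.69 in 17 flut. The males had 11.04, 10.88 and 10.66 in 18 m, against 8.75, 9.66 and 8.75 in 17 m. The females had 11.16, 10.99 and 11.08 in 18 f, against 9.28, 8.99 and 8.91 in 17 f. All 9 pools of GD18 lay above 10.6 and all 9 of GD17 below 9.8, and within 17 m, pool 2 stood well above the other pools. The gene was 2.34-fold higher at GD18 in flutamide-treated males (1.23 ± 0.18, adjusted p = 0.000135), 3.50-fold in males (1.81 ± 0.18, adjusted p = 4.76e-06) and 4.04-fold in females (2.02 ± 0.18, adjusted p = 4.57e-07). H6pd, whose enzyme supplies the NADPH that Hsd11b1 needs in the endoplasmic reticulum, was also higher at GD18, by 0.49 ± 0.13 in flutamide-treated males, 0.82 ± 0.13 in males and 0.77 ± 0.13 in females.

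Hsd11b2, which inactivates corticosterone, moved the other way. It had 6.56, 6.36 and 6.36 in 18 flut, against 6.68, 6.62 and 6.69 in 17 flut. The males had 6.32, 6.32 and 6.30 in 18 m, against 6.71, 6.54 and 6.72 in 17 m. The females had 6.24, 6.34 and 6.28 in 18 f, against 6.76, 6.87 and 6.92 in 17 f. Within each group the GD18 pools were all below the GD17 pools, and across groups only 18 flut 1 and 17 m 2 crossed. The gene fell by 0.24 on the log2 scale in flutamide-treated males (SE 0.07, 1.18-fold lower, adjusted p = 0.0215), by 0.35 in males (SE 0.07, 1.27-fold lower, adjusted p = 0.00157) and by 0.56 in females (SE 0.07, 1.48-fold lower, adjusted p = 9.62e-06). In flutamide-treated males the call was lost without 17 flut 1, 17 flut 3, 18 flut 2 or 18 flut 3 (adjusted p between 0.0667 and 0.0976). The only probe set of Hsd11b2 had a mean of 6.53, at percentile 52.3 of all probe sets, whose median was 6.38. Whether its signal lies above background was not tested.

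Zbtb16, a zinc finger transcription factor that is a strongly induced receptor target in many cell types, had the largest difference among the 8 genes in females. Its signal was 10.83, 10.60 and 10.77 in 18 flut, against 9.66, 9.38 and 9.60 in 17 flut. The males had 10.21, 10.33 and 11.01 in 18 m, against 8.91, 9.51 and 8.60 in 17 m. The females had 11.10, 10.86 and 10.87 in 18 f, against 8.84, 8.85 and 8.74 in 17 f. The pools of the 2 days were fully apart in each group, and the males spread more widely on both days than either other group. Zbtb16 was 2.28-fold higher at GD18 in flutamide-treated males (1.19 ± 0.20, adjusted p = 0.000447), 2.85-fold in males (1.51 ± 0.20, adjusted p = 5.55e-05) and 4.39-fold in females (2.13 ± 0.20, adjusted p = 6.97e-07). Its other probe sets, 1419874_x_at and 1427638_at, were called higher in all 3 groups as well, by 1.00 and 0.56 in flutamide-treated males, 1.39 and 0.60 in males, and 1.99 and 0.67 in females.

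Tsc22d3 encodes the glucocorticoid-induced leucine zipper, a mediator of the anti-inflammatory action of the hormone. It had 10.28, 9.89 and 10.30 in 18 flut, against 9.41, 9.19 and 9.37 in 17 flut. The males had 9.88, 9.87 and 10.06 in 18 m, against 9.05, 9.38 and 9.09 in 17 m. The females had 10.19, 10.10 and 9.76 in 18 f, against 9.24, 9.21 and 9.21 in 17 f. No GD18 pool was as low as any GD17 pool. The differences were close in size across the groups, with 0.83 ± 0.12 in flutamide-treated males (1.78-fold, adjusted p = 0.000153), 0.77 ± 0.12 in males (1.70-fold, adjusted p = 0.000283) and 0.80 ± 0.12 in females (1.74-fold, adjusted p = 8.83e-05). The probe set 1425557_x_at was also called in all 3 groups, at 0.47 in flutamide-treated males, 0.48 in males and 0.43 in females. In 1425281_a_at the difference was called in flutamide-treated males (0.91) and females (0.71) but not in males (0.44 ± 0.18, adjusted p = 0.0945), where pool 3 of 18 m had 8.81, against 9.72 and 9.66 in the other 18 m pools. The fourth set, 1444365_at, was called in none of the groups.

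Per1, a clock repressor that glucocorticoids also induce, had 8.11, 8.05 and 8.19 in 18 flut, against 7.63, 7.27 and 7.43 in 17 flut. The males had 7.90, 8.12 and 8.46 in 18 m, against 7.36, 7.46 and 7.22 in 17 m. The females had 8.42, 8.41 and 8.29 in 18 f, against 7.31, 7.46 and 7.34 in 17 f. Every GD18 pool was above every GD17 pool. The gene was 1.59-fold higher in flutamide-treated males (0.67 ± 0.12, adjusted p = 0.000643), 1.76-fold in males (0.81 ± 0.12, adjusted p = 0.00012) and 2.01-fold in females (1.01 ± 0.12, adjusted p = 5.8e-06).

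Sgk1, a kinase that holds sodium channels at the surface of epithelial cells, and whose promoter above carries the full palindrome, had one of the smaller differences. It had 10.03, 9.88 and 9.81 in 18 flut, against 9.64, 9.45 and 9.71 in 17 flut. The males had 9.84, 9.97 and 9.75 in 18 m, against 9.33, 9.63 and 9.56 in 17 m. The females had 10.02, 9.88 and 9.96 in 18 f, against 9.61, 9.42 and 9.39 in 17 f. The days did not overlap, although 18 m 3 and 17 flut 3 lay within 0.1 of each other. Sgk1 was 1.24-fold higher in flutamide-treated males (0.31 ± 0.10, adjusted p = 0.0314), 1.27-fold in males (0.35 ± 0.10, adjusted p = 0.0139) and 1.39-fold in females (0.48 ± 0.10, adjusted p = 0.000893). The call was lost without 17 flut 1 or 2 or 18 flut 1 or 2 in flutamide-treated males (adjusted p between 0.0573 and 0.16), and without 17 m 1 (adjusted p = 0.0804) or 18 m 2 (adjusted p = 0.0587) in males. Without 17 f 2, 17 f 3 and 17 m 3 the female difference was 0.34 and did not pass (adjusted p = 0.112).

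Fkbp5, a co-chaperone that lowers the affinity of the receptor for its ligand and is itself induced by it, was called in 2 of the 3 groups. It had 9.66, 9.62 and 9.78 in 18 flut, against 9.52, 9.33 and 9.57 in 17 flut. The males had 9.83, 9.58 and 10.05 in 18 m, against 9.32, 9.38 and 9.31 in 17 m. The females had 9.82, 9.75 and 9.68 in 18 f, against 9.47, 9.35 and 9.33 in 17 f. The pools of the 2 days did not overlap in any group, but the gap was narrow in flutamide-treated males. There the difference of 0.21 ± 0.10 was not called (adjusted p = 0.155, 95% interval 0.0049 to 0.42), although with array weights it was 0.23 and was called (adjusted p = 0.0421). It was called in males (0.49 ± 0.10, 1.4-fold, adjusted p = 0.0016) and in females (0.37 ± 0.10, 1.29-fold, adjusted p = 0.00769). That the groups differ in this was not shown, since the interaction of flutamide and day was -0.27 ± 0.14 (adjusted p = 0.461). The female difference was 0.28 without 17 f 2, 17 f 3 and 17 m 3 (adjusted p = 0.231). The other probe sets of Fkbp5 were not called in any group. In 1448231_at the mean was 8.25 in 18 flut against 8.04 in 17 flut, and 8.29 in 18 f against 7.96 in 17 f. In males it was 8.01 in 18 m against 8.02 in 17 m. Pool 3 of 18 m had 7.56 there, against 8.40 and 8.08 in the other 18 m pools, but was the highest of them at 10.05 in 1416125_at. The part of this pool in the male differences was not tested.

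**Figure D2:**
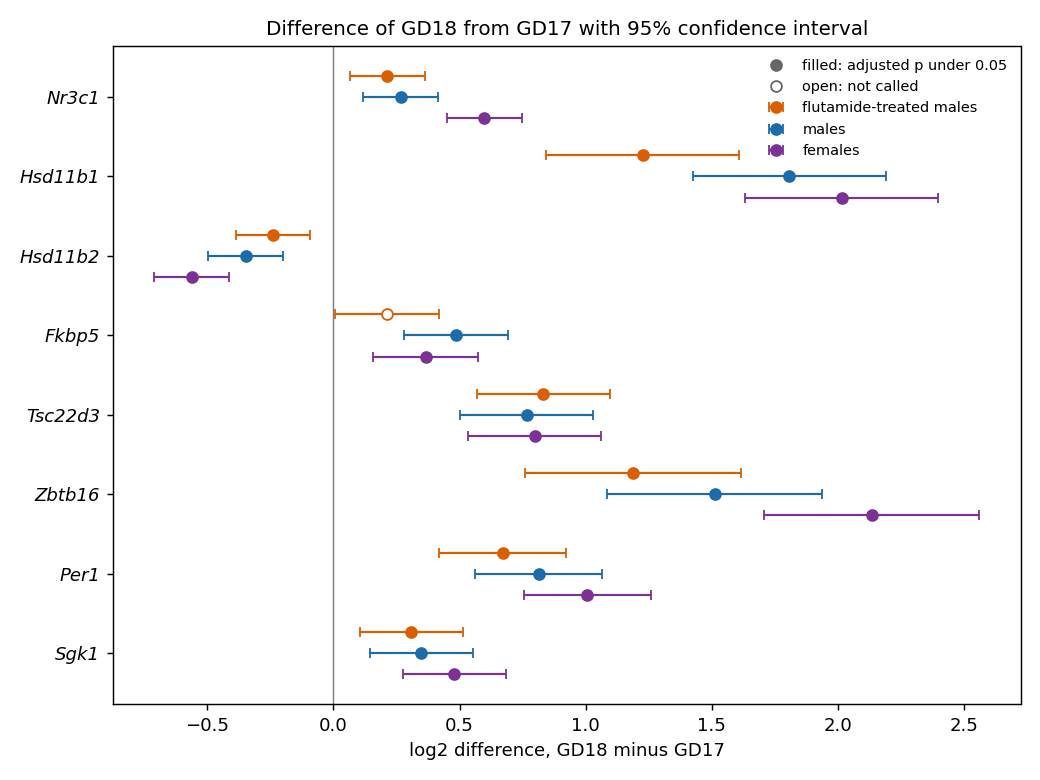
Log2 difference between GD18 and GD17 for the 8 genes, with its 95% interval from limma, for flutamide-treated males, males and females. Filled markers are called at an adjusted p under 0.05, and the open marker of Fkbp5 in flutamide-treated males is the 1 difference of 24 that was not called.

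Markers of lung cell types also moved with the day. The mean of 14 lung epithelial markers was 10.6 to 10.9 in 18 flut, 10.6 to 10.7 in 18 m and 10.7 to 10.8 in 18 f, against 9.55 to 9.73 in 17 flut, 8.92 to 9.51 in 17 m and 9.08 to 9.42 in 17 f. That of 8 endothelial markers was 8.99 to 9.27 in 18 flut, 9.01 to 9.14 in 18 m and 9.14 to 9.25 in 18 f, against 8.62 to 8.68 in 17 flut, 8.40 to 8.71 in 17 m and 8.50 to 8.59 in 17 f. The 12 mesenchymal markers were closer together, between 10.80 and 11.04 at GD18 and between 10.72 and 10.85 at GD17. The part of these shifts in the differences of the 8 genes was not tested.

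Genes beyond the 8 were counted in lists of related genes. Of 34 other glucocorticoid-induced genes, 21 were higher and 2 lower at GD18 in each of the 3 groups, with a median of 0.55 in flutamide-treated males, 0.52 in males and 0.65 in females. The median of all probe sets was within 0.02 of 0. Of all genes, 13% were higher and 13.8% lower in flutamide-treated males, 17.7% and 12.4% in males, and 17.2% and 22.5% in females. The Krüppel-like factor Klf9 was higher by 1.22 ± 0.14, 1.27 ± 0.14 and 1.69 ± 0.14 in flutamide-treated males, males and females, and Klf15 by 1.19 ± 0.13, 1.15 ± 0.13 and 1.54 ± 0.13. Their pools were widely apart, with 10.33 to 11.08 for Klf9 at GD18, against 8.93 to 9.51 at GD17. Cited2, a transcriptional coregulator, was higher by 0.69 ± 0.07, 0.52 ± 0.07 and 0.90 ± 0.07. The 2 genes that were lower in every group were Angptl4, an inhibitor of lipoprotein lipase (-0.28, -0.25 and -0.50), and Cdkn1c, an inhibitor of cyclin-dependent kinases (-0.32, -0.36 and -0.51). Both were chosen for naming after their values were seen, because they went against the rest of the list.

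Among the listed chaperones and co-chaperones of the receptor, more were lower than higher at GD18 in each group. Hsp90ab1, Ptges3 and Ppid had no probe set with a single symbol and were not measured. Of 12 measured, 9 were lower and 1 higher in flutamide-treated males, 6 lower and 1 higher in males, and 10 lower and none higher in females. The share of all genes that was lower was 13.8% in flutamide-treated males, 12.4% in males and 22.5% in females. In the absence of 17 f 2, 17 f 3 and 17 m 3, 6 were lower in females and 4 in males, and without 18 m 3, 4 were lower in males. Fkbp4, the co-chaperone that links the receptor to dynein and competes with Fkbp5, had 10.55, 10.70 and 10.68 in 18 flut, against 11.17, 11.18 and 11.21 in 17 flut. In females it had 10.44, 10.57 and 10.53 in 18 f, against 11.23, 11.28 and 11.33 in 17 f. Its differences were -0.54 ± 0.08 in flutamide-treated males, -0.43 ± 0.08 in males and -0.77 ± 0.08 in females, opposite in sign to those of Fkbp5. Stip1, which passes the receptor between heat shock proteins, was lower by 0.53, 0.70 and 0.94 in flutamide-treated males, males and females. The heat shock protein gene Hspa4 was lower by 0.58, 0.30 and 0.73.

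Of 16 coregulators of the receptor, 6 were higher and 5 lower in flutamide-treated males, while 7 were higher and 5 lower in males and in females. Ncoa1, a coactivator of steroid receptors, was higher by 0.39 ± 0.07, 0.51 ± 0.07 and 0.73 ± 0.07 in flutamide-treated males, males and females. Hdac2, a histone deacetylase, was lower by 0.38 ± 0.07, 0.31 ± 0.07 and 0.48 ± 0.07. Among 13 genes of glucocorticoid supply and transport, including the mineralocorticoid receptor Nr3c2, 2 were higher and none lower in flutamide-treated males, 3 higher and 1 lower in males, and 4 higher and 1 lower in females. Of all genes 26.7% were called in flutamide-treated males, 30.1% in males and 39.6% in females, so this list held no more calls than the background in flutamide-treated males and females and about as many in males. Without 17 f 2, 17 f 3 and 17 m 3, 3 coregulators were higher and 3 lower in males, and 2 supply genes were higher in males and in females, with none lower in males and 1 lower in females. The widest of these was Serpina6, the plasma carrier of corticosterone, which the liver makes, at -5.20 ± 1.11 in females. Serpina6 was at 5.23, 5.40 and 5.57 in 18 f, against 8.94, 11.45 and 11.43 in 17 f, and pools 2 and 3 of 17 f are among those high in pancreas genes. Without them and 17 m 3 its difference was -3.54 (adjusted p = 0.0474). In liver markers the 17 f pools had a mean of 8.0 to 9.68, and the 18 f pools 6.57 to 7.58.

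The clock genes and the immediate early genes, on which glucocorticoids also act, held more genes higher than lower at GD18. The share of all genes that was higher was 13% in flutamide-treated males, 17.7% in males and 17.2% in females. The share that was lower was 13.8%, 12.4% and 22.5%. Of 16 clock genes, 9 were higher in flutamide-treated males, 9 in males and 12 in females, and none was lower. Per3, a relative of Per1, was higher by 0.97 ± 0.08, 0.96 ± 0.08 and 1.15 ± 0.08 in flutamide-treated males, males and females. Tef, an output factor of the clock, was higher by 0.68 ± 0.10, 1.05 ± 0.10 and 1.2 ± 0.10. Of 20 immediate early genes, 10 were higher and 2 lower in flutamide-treated males, 10 higher and 1 lower in males, and 12 higher and 2 lower in females. Ier3 was higher by 1.61, 1.70 and 2.15, and Myc was lower by 0.86, 0.65 and 1.14.

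**Figure D3:**
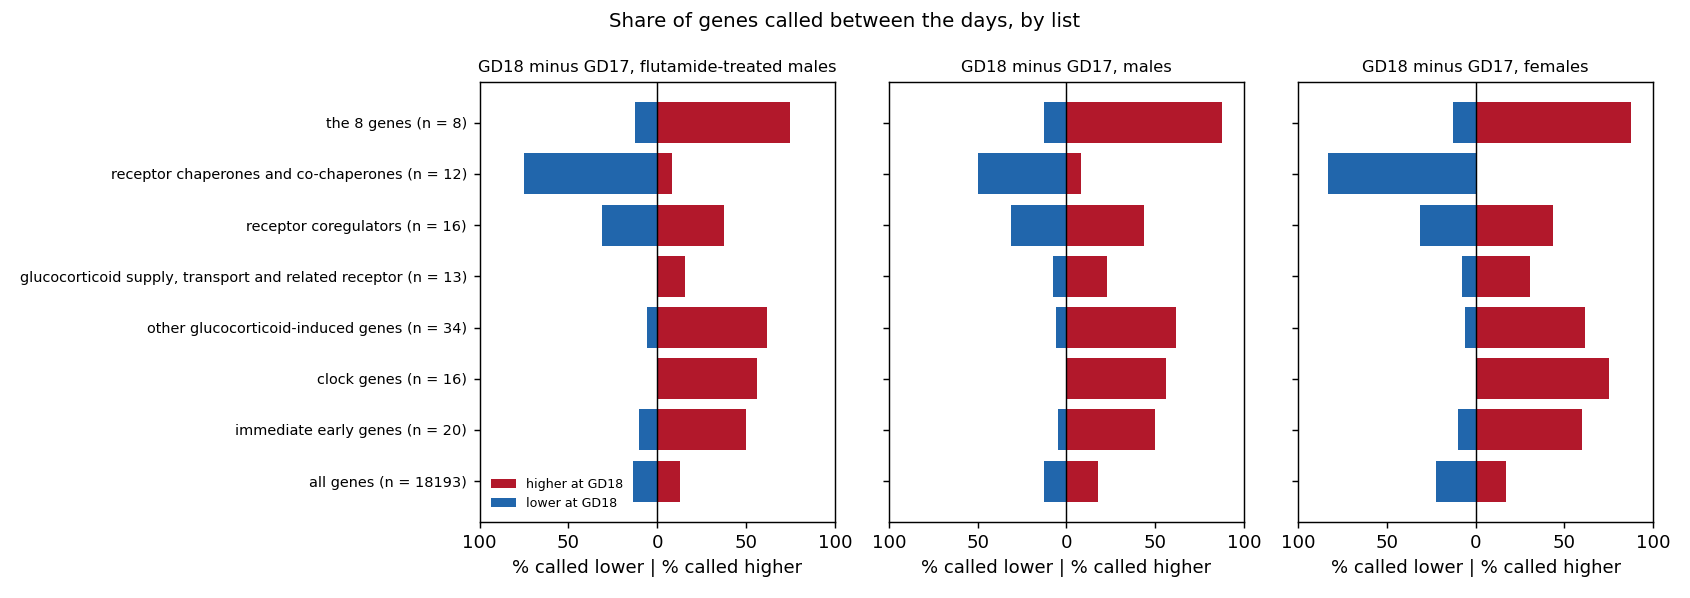
Percent of the measured genes of each list called higher (right of 0) and lower (left of 0) at GD18 than at GD17, for flutamide-treated males, males and females, beside the same for all genes. Other glucocorticoid-induced genes were higher in 21 of 34 in each group. Of 12 chaperones and co-chaperones 9 were lower in flutamide-treated males, 6 in males and 10 in females.

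**Figure D4:**
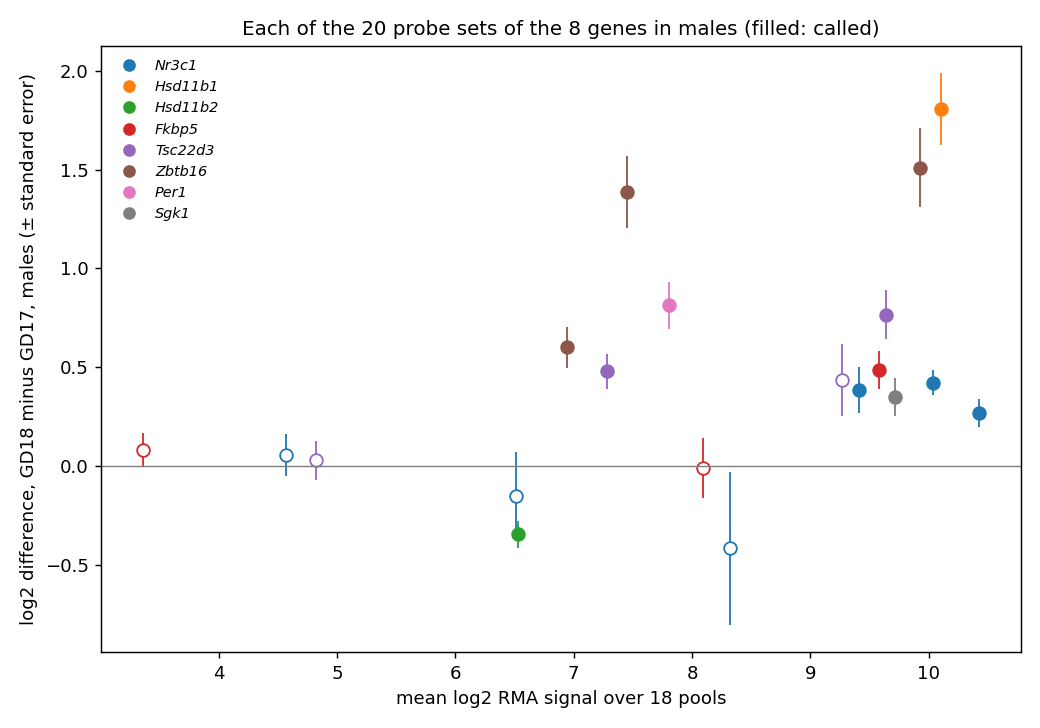
Log2 difference between GD18 and GD17 in males for each of the 20 probe sets of the 8 genes, against their mean log2 signal. Hsd11b1 and Zbtb16 lie farthest from 0, and the probe sets of low mean lie near 0.

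Flutamide made no difference that passed in any of the 20 probe sets, at either day. At GD17 limma called 0 of 20 (3.55% of all probe sets were called), with 7 of 20 at an unadjusted p under 0.05, against 20.3% of all probe sets. At GD18 it called 0 of 20 (3.95% of all), with 0 of 20 at an unadjusted p under 0.05, against 17.2%. The median difference over the 8 genes was 0.12 at GD17 and 0.05 at GD18. At GD18 the 95% intervals still allowed a difference of up to 0.17 for Nr3c1, 0.43 for Hsd11b1 and 0.64 for Zbtb16.

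The nearest to the threshold was Hsd11b1 at GD17, with 9.77, 9.59 and 9.69 in 17 flut, against 8.75, 9.66 and 8.75 in 17 m. Pools 1 and 3 of 17 m lay far below the flutamide-treated males, while pool 2 lay among them. The difference was 0.63 ± 0.18 (1.55-fold, adjusted p = 0.0645). Without 17 m 2 it was 0.93 and was called (adjusted p = 0.00107), but without 17 m 1 (adjusted p = 0.23) or 17 m 3 (adjusted p = 0.163) it was 0.48 and was not. Without 18 m 3, which enters only the estimate of the spread, it was called at its size of 0.63 (adjusted p = 0.0369). Zbtb16 had the same shape, with 9.66, 9.38 and 9.60 in 17 flut, against 8.91, 9.51 and 8.60 in 17 m. Its difference was 0.54 ± 0.20 (adjusted p = 0.146). Without 17 m 2 it was 0.79 (adjusted p = 0.0348) and without 17 m 3, a pool high in pancreas genes, 0.34 (adjusted p = 0.363). It was called at 0.54 without 18 m 3 (adjusted p = 0.0483). The mean of lung epithelial markers was 9.73, 9.56 and 9.55 in 17 flut, against 9.11, 9.51 and 8.92 in 17 m, and pool 2 of 17 m was the highest of its group there too. The part of that in the differences of Hsd11b1 and Zbtb16 was not tested.

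The test of whether the flutamide difference changed with the day called 0 of the 20 probe sets (0.364% of all), with 2 of 20 at an unadjusted p under 0.05, against 11.8% of all. For Hsd11b1 the GD18 difference minus the GD17 difference was -0.58 ± 0.26 (adjusted p = 0.386). Without 17 m 2 it was -0.88 and was called (adjusted p = 0.0253), while with any other single pool of the 4 groups left out it was not called, and it was smaller, at -0.43, without 17 m 1 or 17 m 3.

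Among the other genes of the pathway, few differed with flutamide. At GD17 Rgs2, a regulator of G protein signalling that glucocorticoids induce, was the 1 of 34 induced genes called, with 11.84, 11.71 and 11.80 in 17 flut, against 11.39, 11.55 and 11.36 in 17 m (0.35 ± 0.07, adjusted p = 0.0153). The 17 flut pools were all above the 17 m pools, as in 14.6% of all probe sets. Crh, the releasing hormone at the head of the adrenal axis, had 10.68, 10.62 and 10.61 in 17 flut, against 10.06, 10.42 and 10.01 in 17 m (0.47 ± 0.12, adjusted p = 0.0414), the 1 called of 13 in its list. The clock genes Tef (0.43 ± 0.10, adjusted p = 0.0281) and Bhlhe41 (0.31 ± 0.08, adjusted p = 0.0345) were higher at GD17 as well. At GD18 Bhlhe41 was higher (0.30 ± 0.08, adjusted p = 0.0334), and the chaperones Hspa4 and Hsp90aa1 were lower (-0.29 and -0.30), while no gene of the induced, coregulator, supply or immediate early lists passed. Among all genes, 2.69% were called at GD17 and 4.22% at GD18. Without 17 f 2, 17 f 3 and 17 m 3, the GD17 calls of Rgs2 (0.32, adjusted p = 0.0532), Crh (0.40, adjusted p = 0.126) and Tef (0.34, adjusted p = 0.103) were lost and that of Bhlhe41 was kept. Crh was also lost without 18 flut 3 (adjusted p = 0.0514). Without 18 flut 3 the GD18 calls of Bhlhe41 (0.27, adjusted p = 0.134), Hspa4 (-0.31, adjusted p = 0.0804) and Hsp90aa1 (-0.22, adjusted p = 0.169) were lost, and those of Hspa4 (adjusted p = 0.0585) and Hsp90aa1 (adjusted p = 0.0515) also without 18 m 3.

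**Figure D5:**
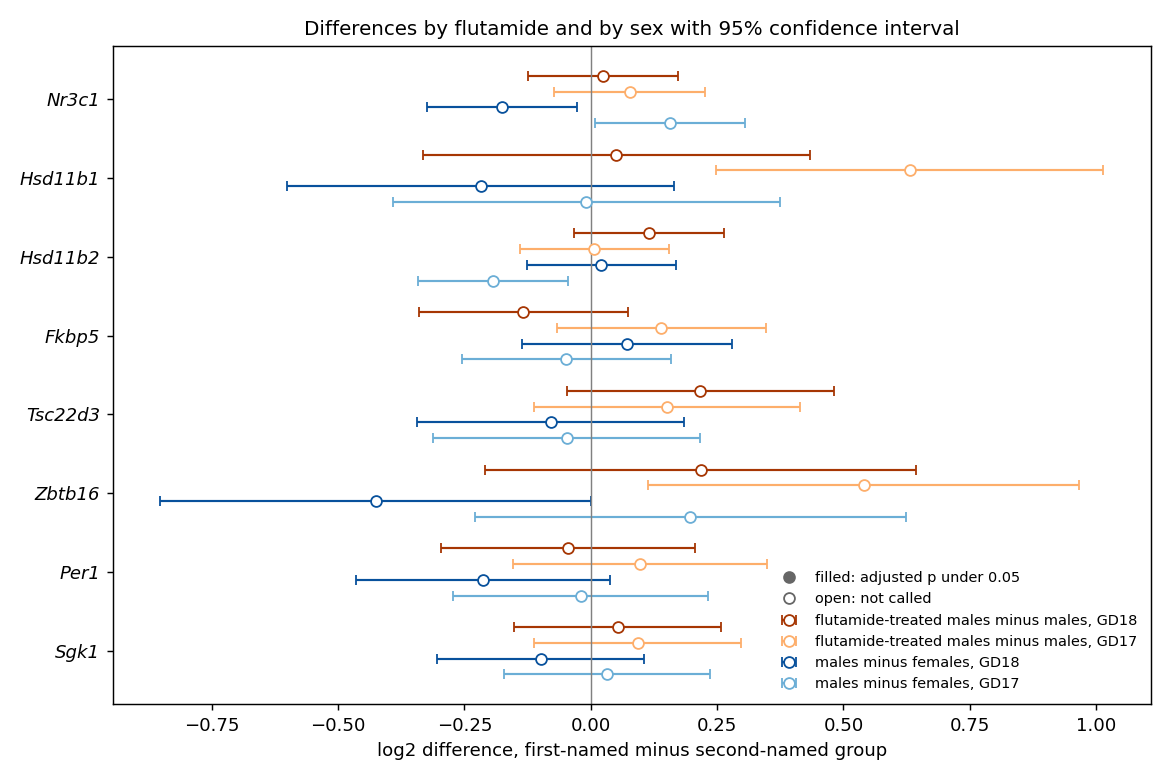
Log2 differences of the 8 genes with their 95% intervals from limma, at GD18 and GD17. Flutamide-treated males are set against males, and males against females. Filled markers are called, and no marker is filled.

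Males and females, compared in the same male pools, showed no difference past the threshold in any of the 20 probe sets. At GD17 limma called 0 of 20 (4.1% of all probe sets), with 2 at an unadjusted p under 0.05, against 16.4% of all, and at GD18 0 of 20 (1.85% of all), with 1 at an unadjusted p under 0.05, against 14.3%. Nr3c1 was at a mean of 10.53 ± 0.11 in 18 m and 10.71 ± 0.03 in 18 f (SD, n = 3 each), a difference of -0.18 ± 0.07 (adjusted p = 0.245). At GD17 it was at 10.27 ± 0.11 in 17 m and 10.11 ± 0.04 in 17 f, a difference of 0.16 ± 0.07 (adjusted p = 0.275). The signs are opposite on the 2 days, and the GD18 difference minus the GD17 difference was -0.33 ± 0.10 (adjusted p = 0.0571, just outside the threshold). It was called when 17 m 3 was left out (-0.39, adjusted p = 0.0224) or 18 m 1 (-0.37, adjusted p = 0.0481). With any other single pool of the 4 groups left out it lay between -0.36 and -0.27 and was not called (adjusted p between 0.064 and 0.134), nor was it without 17 f 2, 17 f 3 and 17 m 3 (-0.36, adjusted p = 0.192). It was also called, between -0.40 and -0.31, with quantile normalisation, cyclic loess, probe sets below the median level left out, array weights or a trended and robust variance prior (adjusted p between 0.017 and 0.0354). The second probe set of Nr3c1, 1460303_at, had -0.15 ± 0.09 for the same test (adjusted p = 0.407).

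The test of sex by day called 0 of the 20 probe sets (6.54% of all), with 4 at an unadjusted p under 0.05, against 20.2% of all. Zbtb16 had 10.21, 10.33 and 11.01 in 18 m, against 11.10, 10.86 and 10.87 in 18 f. Pools 1 and 2 of 18 m lay below all females and pool 3 among them. The difference at GD18 was -0.43 ± 0.20 (adjusted p = 0.352) and the interaction -0.62 ± 0.28 (adjusted p = 0.23). Without 18 m 3, the pool high in liver genes, the interaction was -0.87 and was called (adjusted p = 0.0312). Without 17 m 2 it was -0.37 (adjusted p = 0.468), and without 17 f 2, 17 f 3 and 17 m 3 it was -0.80 (adjusted p = 0.324). With array weights it was -0.91 and was called (adjusted p = 0.0112). Hsd11b2 at GD17 had a difference of -0.19 ± 0.07 between males and females that did not pass (adjusted p = 0.153 in limma).

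Clock was the gene of the pathway lists with the clearest sex difference. It had 7.77 to 8.07 in 18 m, against 8.30 to 8.51 in 18 f, and 8.06 to 8.26 in 17 m, against 7.57 to 7.68 in 17 f. All males lay below all females at GD18 and above them at GD17. Of all probe sets, 7.33% had all males below at GD18 and 12% had them above at GD17. The differences were -0.48 ± 0.09 at GD18 (adjusted p = 0.0178) and 0.55 ± 0.09 at GD17 (adjusted p = 0.0025). The GD17 difference was 0.58 without 17 f 2, 17 f 3 and 17 m 3 and was not called (adjusted p = 0.0839). At GD18 Bhlhe40 (-0.67 ± 0.15) and the immediate early gene Fos (-0.59) were lower in males as well, and none of the 34 induced genes was called on either day. Without those 3 pools the call of Bhlhe40 was lost (adjusted p = 0.0515).

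Flutamide-treated males were also set against females, a comparison that shares its groups with the preceding 2. At GD17, 3 of the 20 probe sets were called, all higher in flutamide-treated males (4.39% of all probe sets were called, 2.66% higher), with 8 of 20 at an unadjusted p under 0.05, against 23.4% of all. At GD18 limma called 0 of 20 (0.278% of all), with 2 of 20 at an unadjusted p under 0.05, against 9.49% of all. Zbtb16 had 9.66, 9.38 and 9.60 in 17 flut, against 8.84, 8.85 and 8.74 in 17 f. The 17 flut pools were all above the 17 f pools, a separation that 18.9% of all probe sets had in this direction. The difference was 0.74 ± 0.20 (1.67-fold, adjusted p = 0.0493), which no longer passed without any 1 of the 6 pools (adjusted p between 0.0697 and 0.162), and its probe set 1419874_x_at gave 0.86 ± 0.18 (adjusted p = 0.0202). The Nr3c1 probe set 1460303_at had 9.95, 9.94 and 10.06 in 17 flut, against 9.72, 9.72 and 9.71 in 17 f (0.27 ± 0.06, adjusted p = 0.0354). For Hsd11b1 the difference was 0.62 ± 0.18 and did not pass (adjusted p = 0.0601). Without the 3 pools high in pancreas genes it was 0.41 (adjusted p = 0.658), and without 18 m 3 it was called at 0.62 (adjusted p = 0.0373). With the 3 pools high in pancreas genes left out, 0 of 20 were called, and without 18 m 3, which enters only the spread, 7 of 20. Of the 14 lung epithelial markers, 6 were also called higher in flutamide-treated males than in females at GD17.

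Across the 6 groups the order of the levels was led by females at GD18 for Nr3c1, Hsd11b1, Zbtb16, Per1 and Sgk1. By mean, Nr3c1 ran 18 f (10.71), 18 flut (10.56), 18 m (10.53), 17 flut (10.35), 17 m (10.27) and 17 f (10.11). Hsd11b1 ran 18 f (11.08), 18 flut (10.91), 18 m (10.86), 17 flut (9.68), 17 f (9.06) and 17 m (9.05). Zbtb16 ran 18 f (10.94), 18 flut (10.73), 18 m (10.52), 17 flut (9.55), 17 m (9.01) and 17 f (8.81). In these 3 genes the GD17 groups were headed by flutamide-treated males, and no neighbours of the same day differed beyond the threshold. Neighbours of different days and different groups were not tested. Tsc22d3 was led by 18 flut (10.16), Fkbp5 by 18 m (9.82) and Hsd11b2 by 17 f (6.85).

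The genes whose profile over the 18 pools was most like that of each member were sought among 11382 genes with a mean at or above the median, as a description, since day, sex and treatment are common to all pools. For Hsd11b1 they were Ctsh, a cathepsin (r = 0.99, Spearman's rho = 0.94) and AU021092 (r = 0.99, rho = 0.95). For Zbtb16 they were Timp3, an inhibitor of metalloproteinases (r = 0.99, rho = 0.98), and Lmo7 (r = 0.99, rho = 0.95). For Tsc22d3 they were the proteoglycan Sdc1 (r = 0.99, rho = 0.96) and the pseudokinase Trib2 (r = 0.98, rho = 0.95). For Per1 they were Ndrg2 (r = 0.98, rho = 0.95) and Klf15 (r = 0.98, rho = 0.93), a gene of the induced list. For Nr3c1 they were Pias1, a SUMO ligase (r = 0.97, rho = 0.95), and Svep1 (r = 0.97, rho = 0.94). For Fkbp5 they were Clba1 (r = 0.95, rho = 0.93) and the histone deacetylase Hdac5 (r = 0.94, rho = 0.89), and for Sgk1 Mettl27 (r = 0.95, rho = 0.93) and the mesenchymal factor Tcf21 (r = 0.94, rho = 0.94). Hsd11b2, the 1 gene that was lower at GD18, was most like E2f1, a cell cycle transcription factor (r = 0.94, rho = 0.89), and Trmt61a (r = 0.94, rho = 0.92).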

How the data were processed

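RNA of 18 pools was hybridised to 1 Affymetrix MOE430 2.0 array each. The authors extracted the images with GCOS, subtracted background, normalised between arrays and summarised the probes by RMA. The deposited intensity is linear, as its range of 6.61 to 30228 shows. The analysis plan had assumed log2 values, so log2 was taken first. The submitters' processing notes name limma, with no version given. Groups and pool numbers were read from the sample labels.

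Of 45101 probe sets, 64 AFFX controls were left out and 45037 tested. An annotation of 2016 gave 1 symbol to 34945 probe sets, several to 932 and none to 9160. One linear model with 6 group means and all 18 pools was fitted in limma 3.58.1 in R 4.3.3, with 12 residual degrees of freedom, variances moderated by eBayes and p adjusted by Benjamini-Hochberg within each comparison. Every adjusted p comes from this model unless an alternative is named. ± is the standard error of a difference, or the SD of a mean over 3 pools. An interaction is the GD18 difference minus the GD17 difference.

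The members and the gene lists were chosen with earlier results of these data known. Every member probe set is accounted for. From each list up to 6 called genes of smallest p are named, by the probe set of highest mean per gene, with any other gene said to be chosen after its values were seen. Glucocorticoid-responsive lists rest on general knowledge, and several listed genes had no probe set with a single symbol. The fit was tested on simulated data. Alternatives covered scaling, filters, weights, the variance prior, the threshold, a replicate block (with statmod 1.5.0) and pools left out. Leaving the pools that stand apart out of the gene lists was added after seeing the data. RefSeq promoters were the only sequence read (GRCm38.p6).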

Additional observations from a re-analysis of the deposited data

Results flagged for a closer look

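In the pathway lists 4 of 111 genes (3.6%, against 4.77% of all genes), none of them among the 8 members, had a difference between males and females that changed with the day by the limma test of that change itself. The GD18 difference minus the GD17 difference was -1.02 ± 0.13 for Clock (adjusted p = 0.000222), which was lower in males than in females at GD18 and higher at GD17. It was 0.50 ± 0.11 for the co-chaperone Bag1 (adjusted p = 0.0099), which had 10.16 to 10.49 in 18 m, against 9.99 to 10.03 in 18 f, and 10.08, 10.05 and 10.02 in 17 m, against 10.26, 10.29 and 10.29 in 17 f. It was 0.43 ± 0.11 for Hspa4 (adjusted p = 0.0218) and -0.38 ± 0.10 for Cited2 (adjusted p = 0.0325). The share of the lists is no larger than that of all genes. Without 17 f 2, 17 f 3 and 17 m 3, Clock was called (-1.05, adjusted p = 0.00598) and the others were not, with 0.46 for Bag1 (adjusted p = 0.16), 0.39 for Hspa4 (adjusted p = 0.221) and -0.44 for Cited2 (adjusted p = 0.109).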

How the results depend on the processing

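The 39 differences of the 8 genes with an unadjusted p under 0.05, of which 24 were called, kept their sign in all 804 alternative values. They were selected by their p in these same data. The threshold, the variance prior, the filter on signal level, 1 probe set per gene, the replicate block and the compared groups alone cannot change a difference. Nor can leaving out pools of groups that are not compared. In those alternatives the kept sign was fixed in advance. The call was the same in 726, was lost in 38 and was gained in 40. With arrays centred on their medians, Nr3c1 (0.19, adjusted p = 0.0761) and Sgk1 (0.28, adjusted p = 0.0502) were not called at GD18 in flutamide-treated males, and with only the compared groups in the fit Nr3c1 (adjusted p = 0.137) and Sgk1 (adjusted p = 0.0885) were not called in males. The count of called probe sets of 20 moved by over 1.5 times as follows. For flutamide-treated males minus males at GD17 (0) it was 1 with quantile normalisation applied again, 2 with array weights, 2 at a threshold of 0.1, 4 without 18 m 3, 3 without 18 m 3 and 18 flut 3, and 0 to 3 with 1 pool of its own groups left out. For males minus females at GD17 (0) it was 1 without 18 m 3. For males minus females at GD18 (0) it was 2 with array weights, 2 without 18 m 3, 1 without 18 m 3 and 18 flut 3, and 0 to 2 with 1 pool of its own groups left out. For flutamide-treated males minus females at GD17 (3) it was 5 with quantile normalisation, 5 with cyclic loess, 5 with probe sets below the median level left out, 8 with array weights, 1 with 1 probe set per gene, 7 without 18 m 3, 7 without 18 m 3 and 18 flut 3, 7 at a threshold of 0.1, 7 with only its own groups in the fit, 0 without 17 f 2, 17 f 3 and 17 m 3, and 0 to 3 with 1 pool of its own groups left out. For GD18 minus GD17 it was 7, 8 and 8 in flutamide-treated males, males and females with 1 probe set per gene, which leaves 8 probe sets, and 9 in females without 17 f 2, 17 f 3 and 17 m 3, which leaves 1 GD17 female pool. With 1 pool of the compared groups left out it was 8 to 10 in flutamide-treated males (12 with all pools), 11 to 13 in males and 14 to 14 in females. For the interaction of flutamide and day (0) it was 0 to 1 with 1 pool of its own groups left out. For the interaction of sex and day (0) it was 1 with quantile normalisation, 1 with cyclic loess, 1 with probe sets below the median level left out, 3 with array weights, 1 with a trended and robust prior, 2 without 18 m 3, 1 without 18 m 3 and 18 flut 3, 1 at a threshold of 0.1, and 0 to 2 with 1 pool of its own groups left out. Other than where fewer probe sets or pools enter, the cause was not tested.

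Pools of the same number showed no common deviation (r over 0.1 in 12 of 45 pairs, between -0.32 and 0.37, median -0.03), and the main model used no pairing. These correlations cannot show whether pools shared litters or batches, since pools that stand apart enter them. With the replicate number as a block, 12, 13 and 14 probe sets were called for GD18 minus GD17 in flutamide-treated males, males and females, 2 for flutamide-treated males minus females at GD17, and 0 in every other comparison. Pools of 3 fetuses, 3 to a group, leave the spread between single fetuses unknown, and a probe set near background limits what a difference can show.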
